A study of Mus musculus with 10 samples.

Results

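The 36 genes examined encode cohesin, condensin and the Smc5-Smc6 complex, the shugoshins, separase and its inhibitor, and the DNA topoisomerases. They were taken from a list of names and not picked by their values, but the list was made with earlier results of these data known. Each gene was represented by the probe set with the highest mean log2 intensity over all 10 arrays among the probe sets annotated to that gene alone. Of the 36 genes, 35 had such a probe set, among 18194 genes in all, and 33 passed the filter on dim probe sets and were tested, among 12709 genes. Rad21l was not analysed here, and the probe sets of Stag3 and Top3a did not pass the filter. The study asked whether maternal mRNAs are enriched at the meiotic spindle of the mouse oocyte. It measured 3 arrays of the spindle-chromosome complex (SCC, replicates 1 to 3), which was removed by microsurgery, 4 arrays of the enucleated cytoplast left behind (replicates 1 to 4) and 3 arrays of the intact MII oocyte (replicates 2 to 4). All groups came from B6D2F1 females given eCG and, 48 h later, 5 IU of hCG, with no genetic change or other treatment. Oocytes were taken 16 h after hCG and freed of cumulus cells with hyaluronidase, and no ages of the females are stated. The labels call the replicates biological but do not say whether they came from separate females, so a p-value here reflects only how far these arrays scatter.

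Cohesin is a ring of structural maintenance of chromosomes (SMC) proteins and a kleisin subunit that holds sister chromatids together, and in meiosis a special kleisin, Rec8, replaces Rad21 in much of this work. Separase cuts the kleisin to release the chromosomes, and shugoshin proteins shield the cohesin at the centromere so that sister chromatids stay joined until the last division. Condensin folds the chromosomes into compact bodies, and topoisomerases release the twists and tangles in DNA. A mature MII oocyte is arrested at metaphase with its chromosomes condensed on the spindle and makes almost no new RNA, so what was measured is stored maternal mRNA, not protein.

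The deposited values are intensities on a linear scale, with array medians between 15.6 and 16.6. The brighter part of the range differed between groups: the 95th percentile of intensity averaged 712 ± 86.5 on SCC arrays and 574 ± 45.1 on cytoplast arrays (SD, n = 3 and 4; exact two-sided permutation test, p = 0.0571). A measure of RNA integrity and amplification, the log2 gap between the actin control probe sets at the transcript's tail and head, averaged 3.42 ± 0.201 on SCC arrays and 4.62 ± 0.687 on cytoplast arrays (exact two-sided permutation test, p = 0.0571, SD, n = 3 and 4). The arrays of the 2 groups did not overlap on the actin gap. The same gap for Gapdh averaged 2.87 ± 0.480 on SCC arrays and 3.17 ± 0.556 on cytoplast arrays (SD, n = 3 and 4). Its arrays overlapped (exact two-sided permutation test, p = 0.429). The part of these measures in the results that follow was not tested, but the results after rescaling are given. Oocyte markers were present, with 13 of 14 above background on all 10 arrays, among them Zp3 and Gdf9. Of 21 cumulus cell markers, 4 lay above background on any array and 1 on all, and their summed intensity was 586 to 697 in the SCC, 582 to 679.6 in the cytoplast and 573 to 692 in the MII oocyte. The cumulus genes Has2, Amh and Fshr lay above background on no array.

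Of the 35 genes with a probe set, 24 lay above background on all 10 arrays. Background is the 95th percentile of the intensities of genes of other tissues on an array, between 53.5 and 70.6. Smc1a lay above it on 7 arrays and Smc5 on 9. The 9 genes above background on no array were Rec8, Smc1b and Stag3, the cohesin subunits known for meiosis, with the cohesin regulator Pds5a, the condensin subunits Smc2 and Ncapd2, and the topoisomerases Top2a, Top3a and Top3b. Of these, Rec8, Smc1b, Stag3 and Top3a have 1 single-gene probe set. Pds5a, Smc2, Ncapd2, Top2a and Top3b have more, and their other probe sets also lay above background on no array. A level not above background does not show that a transcript is absent, since probe sets differ in sensitivity.

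**Figure D1:**
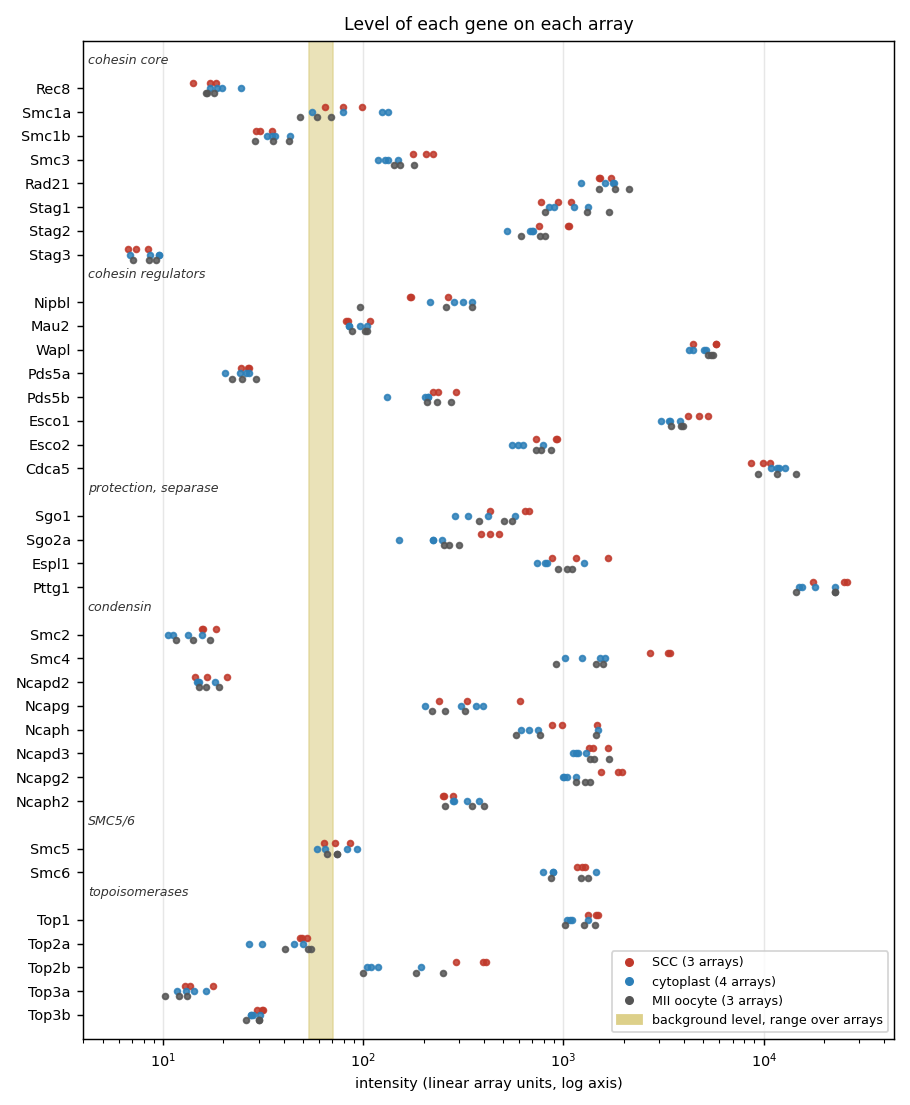
Intensity on a log axis for each gene with a probe set, with 1 point per array and colours for SCC, cytoplast and MII oocyte. 24 of the 35 genes lay above background on all 10 arrays and 9 on none.

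In the SCC against the cytoplast, 6 of the 33 tested genes rose and none fell (limma with Benjamini-Hochberg adjustment over 23737 probe sets, threshold 0.05). The 6 were Sgo2a, Ncapg2, Smc4, Top2b, Smc3 and Esco1. An unadjusted p under 0.05 was reached by 13 of the 33 genes and by 2830 of all 12709 genes tested. Above a mean log2 intensity of 8, it was reached by 9 of 19 of these genes and by 1223 of all 2833. The 6 genes that rose are described by class below. They came from all of the gene classes apart from the Smc5-Smc6 pair. Over all probe sets tested, 6.74% were called higher and 0.274% lower, and over all genes by their brightest probe set 8.03% and 0.275%. The count was 2 (Sgo2a and Ncapg2) without SCC replicate 2 or 3, when 1.14% and 1.02% of all probe sets were called higher, and 3 without cytoplast replicate 1, when 2.44% were. Without overlap, 9 of the 33 genes lay higher and 1 lower, and 13.9% and 5.89% of all probe sets did so. The median log2 difference of the 33 genes was 0.33, against 0.02 for all genes tested. Bright genes stood higher in the SCC as a whole: above a mean log2 intensity of 8, the median was 0.37 for 19 of these genes and 0.28 for all 2833 genes. Of those 19 genes 4 rose (21.1%), and of the 2833 bright genes 20.5% did, so among genes of like brightness the share called was near the background. Of the 19 genes, 6 lay higher and 1 lower without overlap, and 925 and 104 of the 2833 did so. The levels are relative amounts within a fixed mass of labelled cRNA, so a larger amount of a transcript and a smaller amount of the remaining RNA cannot be told apart.

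**Figure D2:**
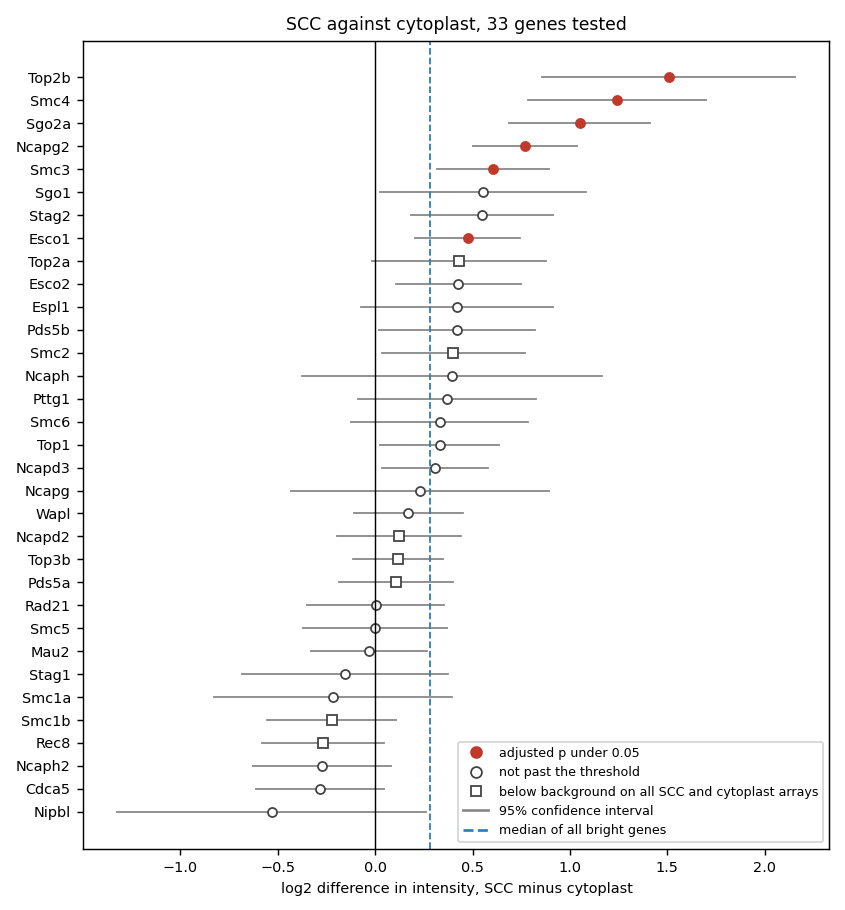
Log2 difference between SCC and cytoplast for the 33 tested genes with its 95% confidence interval. The differences ran between −0.53 and 1.51, and 24 of 33 lay above 0, as did 6864 of all 12709 genes tested. Above a mean log2 intensity of 8, 16 of 19 of these genes and 2198 of all 2833 did so.

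Of the 7 tested cohesin core genes, 1 rose, and the median log2 difference was −0.15. Smc3, the SMC subunit present in every form of the cohesin ring, had 176, 223 and 205 on the SCC arrays, 128, 118, 133 and 149 on the cytoplast arrays and 152, 142 and 179 on the MII oocyte arrays. All SCC arrays lay above all cytoplast arrays, and the SCC and MII oocyte arrays overlapped. The SCC level was 1.52 times that of the cytoplast (log2 difference 0.61, SE 0.13, adjusted p = 0.0209, limma). Stag2, a subunit that binds the ring through its kleisin, had 752, 1066 and 1058 in the SCC and 694, 524, 682 and 708 in the cytoplast. Its arrays did not overlap, but the log2 difference of 0.55 did not pass (adjusted p = 0.0724, limma). Stag2 passed with the level of the hybridisation controls as a covariate (adjusted p = 0.0228) or a block of brighter and dimmer arrays (0.0357). With these, 11.7% and 10.6% of all probe sets were called higher, against 6.74% in the main fit. Stag1, the close relative of Stag2, differed by −0.15 with overlapping arrays. A dimmer Stag1 probe set, above background on all 10 arrays, was at 0.24 and overlapped too (adjusted p = 0.507, limma). Rad21, the kleisin of mitotic cohesin, averaged 1583 ± 130.4 in the SCC and 1595 ± 262 in the cytoplast (SD, n = 3 and 4), with a 95% confidence interval of −0.35 to 0.35 for its log2 difference. A dimmer Rad21 probe set, also above background on all 10 arrays, was at 0.34 with overlapping arrays (1.27-fold, adjusted p = 0.219, limma). Smc1a differed by −0.22, with arrays that overlapped widely. Its meiotic counterpart Smc1b and the meiotic kleisin Rec8 lay below background in every group, so no fold is given. Rec8 averaged 16.6 on SCC, 20.0 on cytoplast and 16.9 on MII oocyte arrays.

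Of 8 tested cohesin regulators, 1 rose, and the median was 0.14. Esco1, an acetyltransferase that acts on Smc3, had 4178, 5290.5 and 4764 on the SCC arrays, 3400.3, 3362, 3804 and 3063 on the cytoplast arrays and 3431, 3973 and 3862 on the MII oocyte arrays. The SCC arrays were the highest and overlapped with neither other group. Esco1 was 1.39-fold higher than in the cytoplast (log2 difference 0.47, SE 0.12, adjusted p = 0.0404, limma). Esco2, the acetyltransferase that acts during DNA replication, had a log2 difference of 0.43 (adjusted p = 0.114), and Pds5b, a partner of the ring that helps to hold or to release it, had 0.42 (adjusted p = 0.224). The cytoplast value of Pds5b leaned on replicate 4, at 132 against 203 to 211 on the other arrays. Wapl, which opens the ring and releases cohesin, differed by 0.17 at its brightest probe set (adjusted p = 0.524), with overlapping arrays.

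Cdca5, known as sororin, which keeps Wapl from releasing cohesin, was the 1 tested gene with every SCC array below every cytoplast array. It had 9875, 10705 and 8625 in the SCC and 12807, 11643, 10831 and 11975 in the cytoplast. The log2 difference of −0.28 did not pass (SE 0.15, adjusted p = 0.334, limma). No overlap in that direction was seen for 5.89% of all probe sets tested. Nipbl, which loads cohesin onto DNA, had 172, 171 and 264 on the SCC arrays, 349, 285, 215 and 313 on the cytoplast arrays and 259.6, 95.9 and 349 on the MII oocyte arrays. The MII oocyte arrays spanned the whole range of the other groups, and the log2 difference of −0.53 between SCC and cytoplast had an SE of 0.36. Its loading partner Mau2 differed by −0.03. Pds5a lay below background.

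The genes of centromere protection and of separase held 1 rise among 4, with all 4 differences above 0 and a median of 0.49. Sgo2a, the shugoshin that recruits a phosphatase to protect centromeric cohesin in oocytes, had 386, 431 and 477 on the SCC arrays, 248, 223, 224 and 151 on the cytoplast arrays and 252, 269 and 299.6 on the MII oocyte arrays. No array of one group reached the range of another, and the MII oocyte lay between SCC and cytoplast. The SCC level was 2.07 times that of the cytoplast (log2 difference 1.05, SE 0.17, adjusted p = 0.0064, limma). Sgo1, which protects centromeres in mitosis, averaged 583 ± 133 in the SCC and 403 ± 127 in the cytoplast (SD, n = 3 and 4), with overlapping arrays and a log2 difference of 0.55 (adjusted p = 0.224). Sgo1 passed with the hybridisation controls as a covariate (adjusted p = 0.0376), when 11.7% of all probe sets were called higher, and not as a block (0.0738). A dimmer Sgo1 probe set, above background on all 10 arrays, was at 0.07 (adjusted p = 0.926, limma). Espl1, separase itself, had 873, 1153 and 1675 in the SCC and 826, 739, 807 and 1264 in the cytoplast, and the ranges overlapped. Pttg1, securin, which keeps separase inactive, differed by 0.37 at its brightest probe set (adjusted p = 0.373).

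Condensin held 2 rises among 8 tested genes, and its median was 0.35. Smc4, an SMC subunit of both condensin I and condensin II, had 2702, 3335 and 3422 on the SCC arrays, 1234, 1519.9, 1615 and 1019 on the cytoplast arrays and 916, 1567 and 1448 on the MII oocyte arrays. The SCC arrays stood far above the rest, and the cytoplast and MII oocyte arrays ran through the same range. Smc4 in the SCC was at 2.37 times its cytoplast level (log2 difference 1.24, SE 0.21, adjusted p = 0.00856, limma). The other Smc4 probe sets that were tested had overlapping arrays and did not pass, at 1.57-fold (adjusted p = 0.0716) and 1.17-fold (0.809). By the median of its probe sets Smc4 was at 0.65 on the log2 scale and did not pass (adjusted p = 0.0589). Ncapg2, a regulatory subunit of condensin II, had 1541, 1960.5 and 1883 on the SCC arrays, 995, 1012, 1155 and 1037 on the cytoplast arrays and 1151, 1283 and 1363 on the MII oocyte arrays. All SCC arrays lay above both other groups, and the level was 1.70-fold that of the cytoplast (log2 difference 0.77, SE 0.12, adjusted p = 0.00658, limma). Ncapd3, another condensin II subunit, differed by 0.31 (adjusted p = 0.183), with SCC arrays above cytoplast arrays but overlapping the MII oocyte arrays. Ncaph2, the kleisin of condensin II, lay lower on average in the SCC, with a log2 difference of −0.27 (adjusted p = 0.4).

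Among the subunits of condensin I, Ncaph had 876, 980.2 and 1465 on the SCC arrays, 743, 610.1, 674 and 1496 on the cytoplast arrays and 760.2, 577 and 1457 on the MII oocyte arrays. Each group held 1 array at 1457 or above with the others at 980.2 or below, so the spread within a group exceeded the difference between groups. Ncapg likewise overlapped, between 238 and 609 in the SCC and between 204 and 397 in the cytoplast. Smc2 and Ncapd2 lay below background, so the partner of Smc4 in the condensin ring was not measured well here. Of the Smc5-Smc6 complex, which serves DNA repair and the untangling of sister chromatids, Smc6 differed by 0.33 (adjusted p = 0.428) and Smc5 by 0.00 at their brightest probe sets.

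**Figure D3:**
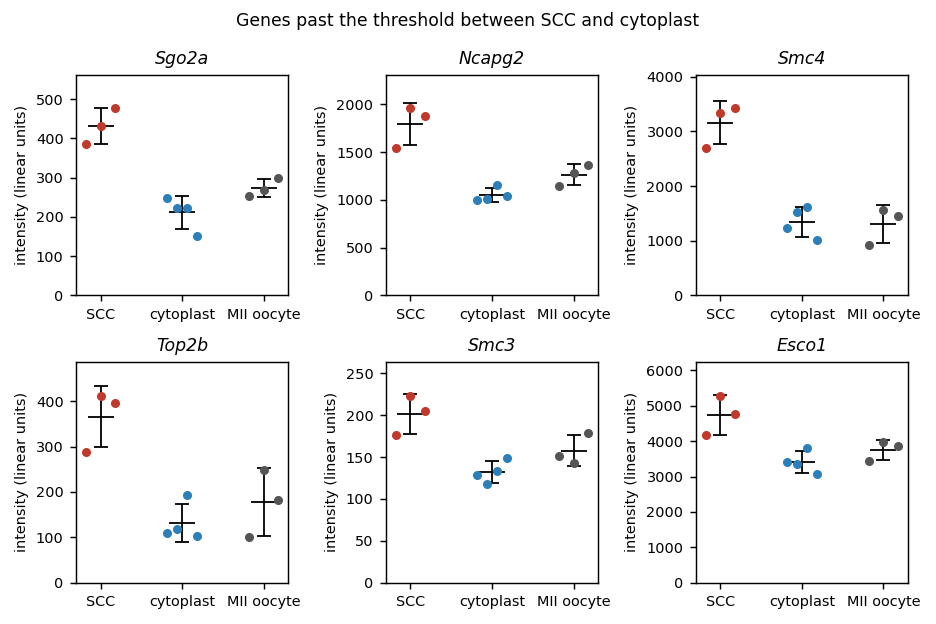
Intensity on each array for the 6 genes that rose in the SCC against the cytoplast, with SCC, cytoplast and MII oocyte left to right and the mean ± SD of each group. The SCC arrays lay above every cytoplast array in all 6 panels.

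The 4 tested topoisomerases held 1 rise, and their median was 0.38. Top2b, the form of topoisomerase II that is present in cells that no longer divide, had 289, 412 and 397 on the SCC arrays, 109.6, 118, 194 and 104 on the cytoplast arrays and 99.7, 249 and 183 on the MII oocyte arrays. The SCC arrays were the highest, and 1 MII oocyte array lay below every cytoplast array. At 2.84-fold over the cytoplast, it showed the largest difference of the 33 genes (log2 difference 1.51, SE 0.30, adjusted p = 0.014, limma). Top1, which nicks a single DNA strand, had 1319, 1456 and 1494 in the SCC and 1326, 1037, 1076 and 1101 in the cytoplast. Its log2 difference of 0.33 did not pass (adjusted p = 0.204), and replicate 1 of each group overlapped. Top2a, the form tied to cell division, lay below background on every array and did not pass (adjusted p = 0.267).

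The promoters of Top2b and Ncapg2, which rose, are shown beside those of their close relatives Top2a and Ncapg, which did not pass. Each is the 250 bases before the RefSeq start of the gene in GRCm38.p6, read 5′ to 3′ on the gene's strand. Capitals mark CCAAT and TTTGAA on either strand, the letters of the CCAAT box and of the cell cycle homology region of many genes that cycle with division.
Top2b: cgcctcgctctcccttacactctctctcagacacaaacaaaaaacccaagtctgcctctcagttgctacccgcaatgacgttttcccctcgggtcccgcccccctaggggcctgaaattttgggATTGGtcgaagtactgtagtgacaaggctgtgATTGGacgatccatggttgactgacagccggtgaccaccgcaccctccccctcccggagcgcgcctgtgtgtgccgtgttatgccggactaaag
Top2a: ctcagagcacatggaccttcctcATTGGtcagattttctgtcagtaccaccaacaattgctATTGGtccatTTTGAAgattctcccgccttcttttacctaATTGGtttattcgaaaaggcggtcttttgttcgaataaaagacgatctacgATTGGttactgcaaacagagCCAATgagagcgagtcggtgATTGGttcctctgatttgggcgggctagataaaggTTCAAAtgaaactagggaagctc
Ncapg2: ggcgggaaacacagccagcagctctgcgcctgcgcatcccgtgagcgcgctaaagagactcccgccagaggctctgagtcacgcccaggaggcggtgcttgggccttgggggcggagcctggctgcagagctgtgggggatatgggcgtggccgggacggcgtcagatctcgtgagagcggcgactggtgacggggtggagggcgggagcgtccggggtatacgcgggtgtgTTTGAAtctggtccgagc
Ncapg: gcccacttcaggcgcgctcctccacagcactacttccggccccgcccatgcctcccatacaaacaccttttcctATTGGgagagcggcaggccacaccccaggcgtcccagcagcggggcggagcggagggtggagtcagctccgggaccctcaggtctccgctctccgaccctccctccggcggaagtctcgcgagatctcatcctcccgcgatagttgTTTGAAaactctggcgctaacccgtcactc
They lie at chr14:16364956-16365205, plus strand, at chr11:99024190-99024439, minus strand, at chr12:116405186-116405435, plus strand and at chr5:45669675-45669924, plus strand. Top2b held 2 CCAAT and 0 TTTGAA matches, and Top2a held 6 and 2. Ncapg2 held 0 CCAAT matches and 1 TTTGAA, and Ncapg held 1 of each. Of all 32851 promoters of this length, 33.8% held CCAAT and 15.99% held TTTGAA, and of the 31 promoters of the 28 examined genes found in the RefSeq table, 48.4% and 32.3% did. The 4 matched genes that rose include Sgo2a and Smc3, and Smc4 and Esco1 are named only. A match is a description of the letters, and the absence of a match says nothing about a factor.

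Pairs of related genes were also compared directly, by the difference of their log2 values on each array. The 13 pairs were chosen after the values were seen. In 6 pairs, Top2b with Top2a and Smc4 with Smc2 among them, a gene lay below background, and their gaps are not given. The gap between SCC and cytoplast was 0.70 larger for Stag2 than for Stag1 (exact two-sided permutation test, p = 0.0571, adjusted p = 0.297 over the pairs). It was 0.50 larger for Sgo2a than for Sgo1 (exact permutation p = 0.343, adjusted 0.495) and 0.05 larger for Esco1 than for Esco2 (0.629, adjusted 0.681). These gaps are between the brightest probe sets. Dimmer probe sets of Stag1 and Sgo1 stood at 0.24 and 0.07, against −0.15 and 0.55 at the brightest, and gaps with them were not tested. With 3 against 4 arrays the smallest possible p is 0.0286, and 8 of the 13 pairs would have to reach it for any to pass, so these comparisons could hardly show a difference or its absence.

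The 35 genes had 95 single-gene probe sets, of which 67 passed the filter. Of these 67, 11 were called higher in the SCC against the cytoplast (16.4%) and none lower, and they belonged to 10 genes. The share over all probe sets was 6.74% higher and 0.274% lower. Above a mean log2 intensity of 8, 8 of 28 probe sets of these genes were called higher (28.6%), and 20.3% of all 3944. Of the 34 dimmer probe sets tested, 5 passed and 28 had overlapping arrays. A dimmer Wapl probe set had 2482, 3151 and 3034 on the SCC arrays, 1621, 1245, 1489 and 1463 on the cytoplast arrays and 1822, 1881 and 2068 on the MII oocyte arrays. No array of the SCC reached down to the other groups, and the level was 1.98-fold that of the cytoplast (log2 difference 0.99, SE 0.13, adjusted p = 0.00373, limma), against 0.17 at the brightest probe set.

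Pttg1 had a dimmer probe set at 2.05-fold (log2 difference 1.04, adjusted p = 0.0132, limma), with 2180.3, 2842 and 3092 in the SCC and 1102, 1104, 1562 and 1517 in the cytoplast. Smc6 had a pair of dimmer probe sets that passed, at 1.90-fold (adjusted p = 0.0107) and 1.59-fold (adjusted p = 0.0167), and another that did not, at 1.07-fold (0.722). The dimmer probe set of Smc3 was at 1.13-fold (adjusted p = 0.477), that of Esco1 at 1.58-fold (0.0824) and that of Esco2 at 1.01-fold (0.984). A dimmer Ncapd3 probe set was above background on the SCC arrays and on no cytoplast array. It passed on its measured values (log2 difference 0.60, adjusted p = 0.0341, limma), with means of 73.6 in the SCC and 48.1 in the cytoplast. Set against background instead, the SCC mean was at least 1.15-fold higher, and this bound was not tested. The difference between probe sets of 1 gene could hardly be tested: over 15 pairs, 9 would have to reach the smallest exact permutation p of 0.0286 for any to pass after adjustment, and Wapl and Esco2 did (adjusted p = 0.143). The brightest probe sets of Rad21, Pds5a, Pttg1, Ncaph, Ncapd3, Ncaph2 and Top3b have names that mark probes shared with other transcripts.

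**Figure D4:**
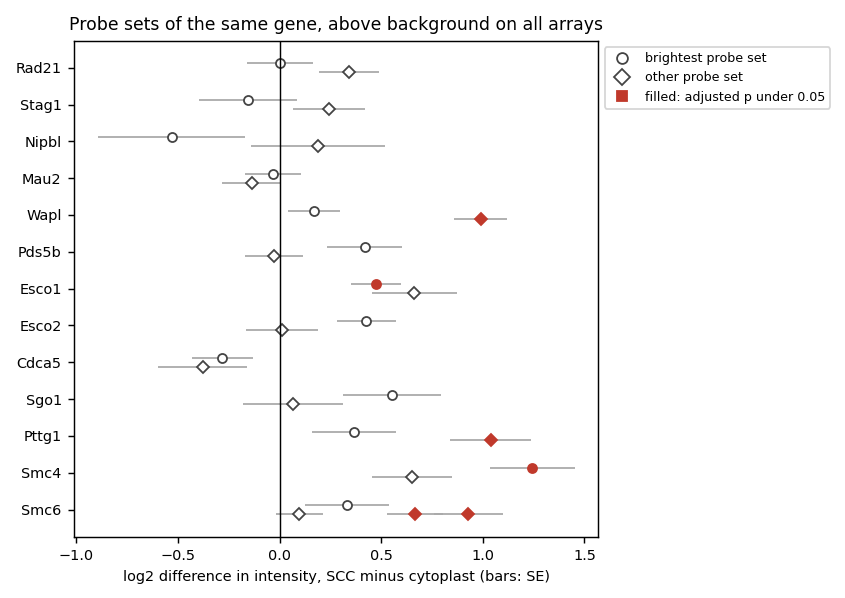
Log2 difference between SCC and cytoplast with its SE for probe sets above background on all arrays, of genes with more than 1 such set. Circles are the brightest sets, diamonds the others, and filled symbols passed the threshold. For Wapl the brightest probe set was at 0.17 and a dimmer one at 0.99.

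Because bright probe sets stood higher in the SCC, the arrays were also rescaled. After cyclic loess the median log2 difference of bright genes was 0.01 and that of the bright examined genes 0.06. After quantile normalization the medians were −0.0033 and 0.10. Sgo2a alone remained past the threshold of the 6 genes, at 0.83 after cyclic loess (adjusted p = 0.035) and 0.76 after quantile normalization (adjusted p = 0.0381). Of all probe sets 2.13% were called higher and 0.51% lower after cyclic loess, and 1.76% and 0.649% after quantile normalization. Top2b kept a log2 difference of 1.32 (adjusted p = 0.0516), Smc3 of 0.44 (0.0506), Smc4 of 0.96 (0.0727) and Ncapg2 of 0.49 (0.067) after cyclic loess. Esco1 had 0.16 (adjusted p = 0.651). The dimmer Wapl probe set still passed after each rescaling, at 0.70. Cdca5 lay at −0.62 after cyclic loess (adjusted p = 0.0541).

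**Figure D5:**
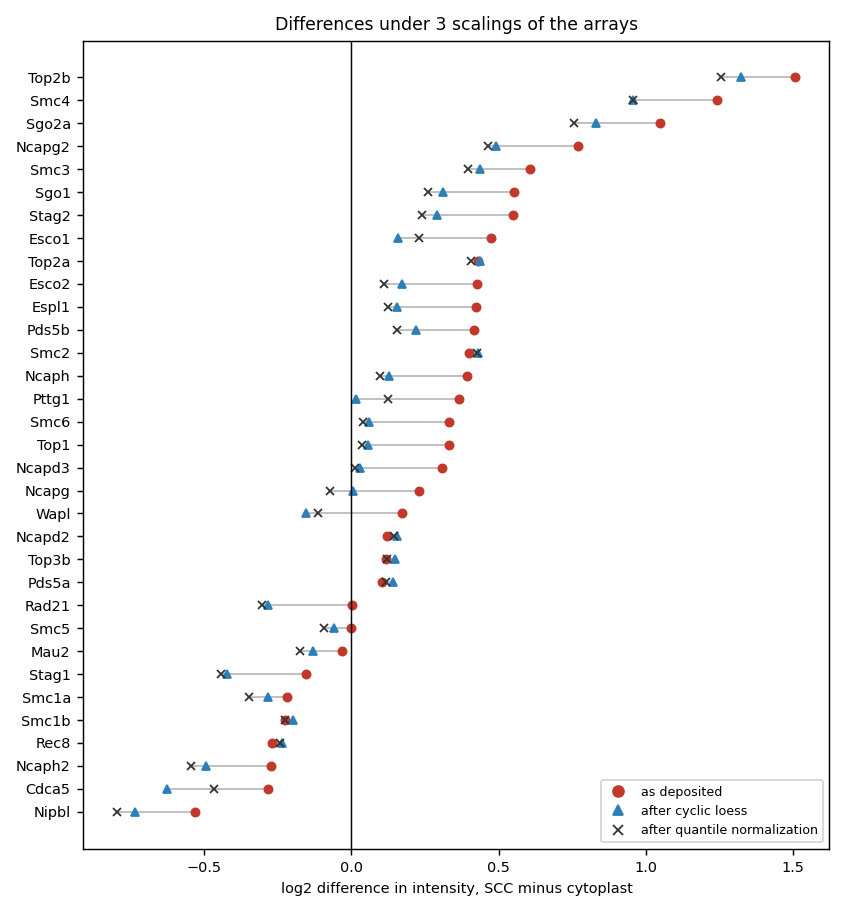
Log2 difference between SCC and cytoplast for the 33 genes under 3 scalings: as deposited, cyclic loess and quantile. The median over the 33 genes was 0.33, 0.13 and 0.11.

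The 10 arrays were split into brighter and dimmer ones by their hybridisation control probe sets, with 1 SCC, 1 cytoplast and 2 MII oocyte arrays among the brighter. The cut was made at the widest gap in the mean log2 of these controls. Cytoplast replicate 1, at 10.68, fell in the dimmer set but stood almost midway between the nearest arrays, at 10.27 and 11.11, so its side was not clear-cut. The 6 genes lay higher in the SCC in each set, as they had to, since every SCC array lay above every cytoplast array for them. In the brighter set the log2 difference was 1.66 for Sgo2a, 1.75 for Smc4, 1.93 for Top2b, 0.86 for Ncapg2, 0.46 for Smc3 and 0.64 for Esco1. In the dimmer set it was 0.82, 1.05, 1.34, 0.73, 0.65 and 0.42 for the same genes in that order. Ncapg (1.58 and −0.35) and Smc1a (0.82 and −0.62) changed direction between brighter and dimmer sets.

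In the SCC against the intact MII oocyte, which includes the spindle, no examined gene passed (limma). An unadjusted p under 0.05 was reached by 6 of the 33 genes and by 1688 of all 12709 genes tested. Among bright genes, above a mean log2 intensity of 8, 4 of 19 of these genes and 648 of all 2833 reached it. Over all probe sets, 0.0421% were called higher and none lower, and over all genes by their brightest probe set 0.0472% were called higher. Smc4 came closest, at 2.46-fold (log2 difference 1.297, SE 0.22, adjusted p = 0.0638). Top2b was at 1.13 (adjusted p = 0.18), Sgo2a at 0.66 (0.166), Ncapg2 at 0.50 (0.158), Smc3 at 0.35 (0.332) and Esco1 at 0.33 (0.33). The SCC arrays lay above all MII oocyte arrays for Esco1, Sgo2a, Smc4, Ncapg2 and Top2b, while 8.71% of all probe sets did so, and no gene lay below all of them (5.34% of probe sets did). The median over the 33 genes was 0.11, against 0.00 for all genes. Above a mean log2 intensity of 8 it was 0.21 for 19 of these genes and 0.11 for all 2833 genes. Of those 19 genes, 4 lay above all MII oocyte arrays, as did 482 of the 2833. Without cytoplast replicate 4, which enters the shared spread, 1 gene passed (Smc4), with 0.114% of all probe sets higher. Without MII oocyte replicate 3, 2 passed (Smc4 and Top2b), with 1.87% of all probe sets higher and 1.07% lower. With the hybridisation control block 1 passed (Smc4), with 1.3% higher and 0.08% lower. These values share the SCC arrays with the comparison above.

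In the cytoplast against the MII oocyte no examined gene passed (limma), and no probe set of any gene did. An unadjusted p under 0.05 was reached by 4 of the 33 genes and by 595 of all 12709 genes tested. Among bright genes, above a mean log2 intensity of 8, 3 of 19 of these genes and 210 of all 2833 reached it. The median was −0.16, against −0.06 for all genes and −0.18 for bright genes. The cytoplast arrays lay below all MII oocyte arrays for Wapl, Sgo2a and Ncapd3, as did 3.83% of all probe sets, and none of the 33 lay above (1.89% of probe sets did). Above a mean log2 intensity of 8, 3 of 19 of these genes lay below, as did 268 of all 2833 genes. Sgo2a lay at −0.39 on the log2 scale (SE 0.17, adjusted p = 0.926, limma). The mean of the MII oocyte lay between those of the SCC and the cytoplast for 15 of the 24 genes above background on all arrays, and the SCC mean was the highest for 16.

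Of 43 genes of related chromosome structure, 39 had a probe set and 30 were tested. In the SCC against the cytoplast 10 rose and none fell, with a median of 0.34 (8.03% of all genes were called higher). Of all genes above a mean log2 intensity of 8, 20.5% were called higher, with a median of 0.28. Of the 39 related genes, 21 lay above background on all 10 arrays, and they were not compared with genes of like brightness. The count of 10 was 3 after cyclic loess. Leaving out SCC replicate 2 gave 3 genes, SCC replicate 3 gave 2, and cytoplast replicate 1 or 2 gave 6. Sycp1, the transverse filament of the synaptonemal complex, was 2.20-fold higher (adjusted p = 0.00637, limma), Tex12, a part of its centre, 2.38-fold (0.00642), and Sycp2, a part of its axis, 2.48-fold (0.012). The synaptonemal complex joins homologous chromosomes early in meiosis. Nsmce3 and Nsmce2, partners of the Smc5-Smc6 complex, were 1.55-fold (adjusted p = 0.0107) and 1.58-fold (0.0114) higher, and Tipin, which helps replication forks, 1.81-fold (0.012). A further partner, Nsmce4a, chosen after its value was seen, was 2.14-fold higher (adjusted p = 0.0256). Other genes of the same complexes did not pass: Nsmce1 was at 1.19-fold (adjusted p = 0.498) and Slf2 at −0.39 on the log2 scale (0.343). Sycp3 was at 1.41-fold (adjusted p = 0.068) and Syce2 at 1.42-fold (0.0515), and Slf1 and Syce3 lay below background.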

How the data were processed

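RNA of in vivo matured MII oocytes, cytoplasts and spindle-chromosome complexes was amplified in 2 rounds from up to 50 ng, and 10 µg of cRNA were hybridised to Affymetrix arrays of 45101 probe sets, per the labels' protocols. The values deposited by the authors are linear intensity. RMA was named in the submitters' processing notes, with settings not given in the sources used here. They were put on the log2 scale here before any test, although log2 had been planned for as deposited. The number of arrays limits the precision, and array medians were 15.6 to 16.6.

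Groups came from the array titles. The 64 controls were left out, and probe sets above the array median on at least 3 arrays were kept (23737). Probe sets annotated to 1 gene numbered 34945, to several 932 and to none 9160, and 34741 of the first matched by gene ID to the RefSeq table of GRCm38.p6, used for names and promoters. Group differences came from limma 3.58.1 (R 4.3.3), fitted with 3 group means over 10 arrays and Benjamini-Hochberg adjustment at 0.05, after a test on simulated data. Single values were compared by exact permutation. Named were all 36 genes and at most 6 related genes by smallest p. The genes and lists were chosen with earlier results of these data known. Alternatives were other scalings, filters, an added constant, gene-level medians, moderation, blocks and leaving out each array. No level was compared between probe sets.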

Additional observations from a re-analysis of the deposited data

Results flagged for a closer look

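Among the 4 cytoplast arrays, 1 array stood apart from the other 3 for 3 of the 35 genes looked at, by Dixon's ratio of the gap to the range of log2 intensity (at the 95% critical level, which chance alone passes in a small share of groups). Groups of 3 arrays were not examined in this way. Stag2, a cohesin subunit, was lowest in cytoplast replicate 2, at 524 against 682 to 708 on the other arrays, with a ratio of 0.875. Pds5b, a cohesin regulator, was lowest in cytoplast replicate 4, at 132 against 203 to 211, with a ratio of 0.922. Ncapd2, a condensin I subunit below background on every array, was highest in cytoplast replicate 4, at 18.1 against 14.8 to 15.1, with a ratio of 0.898.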

How the results depend on the processing

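The count of 6 genes higher in the SCC than the cytoplast was 1 after cyclic loess and 1 after quantile normalization (Sgo2a in both), 9 with gene-level medians (without Smc4, and with Ncapd3, Pttg1, Smc6 and Wapl), 8 with the hybridisation control covariate (with Stag2 and Sgo1), 7 with that block (with Stag2), and 2 to 7 when single arrays were left out. The count was 2 without SCC replicate 2 and 2 without SCC replicate 3 (Sgo2a and Ncapg2 in both) and 3 without cytoplast replicate 1. Of all probe sets, 6.74% were called higher in the main fit, 11.7% with the covariate and 10.6% with the block. With single arrays left out 1.02% to 8.61% were, and by gene-level medians 7.67% of all genes were. Sgo2a passed under all 21 alternatives run, Ncapg2 under 19, Smc4 and Top2b under 16, Smc3 under 15 and Esco1 under 11. Sgo2a and Ncapg2 have 1 probe set and Top2b 1 that was kept, so gene-level medians could not change their differences. Leaving out an MII oocyte array changes the p-values of this comparison but not its differences. Against the MII oocyte the count of 0 became 1 (Smc4) with a hybridisation control covariate, with that block and with a replicate block, and 0 to 2 when single arrays were left out (1 without cytoplast replicate 4, 2 without MII oocyte replicate 3). Of all probe sets, 1.25% were called higher with the covariate, 1.3% with the block and 0.527% with the replicate block, against 0.0421% in the main fit. Deviations of arrays with the same replicate number correlated at −0.304 to 0.614 over 8 pairs (mean 0.0214). These values do not settle whether the numbers pair the arrays, and the main fit did not pair them. The replicate block gave 5 genes against the cytoplast, with 7.73% of all probe sets called higher. The count of 10 related genes was 3 after cyclic loess, 4 after quantile normalization (3 higher, 1 lower) and 2 to 13 when single arrays were left out: 3 without SCC replicate 2, 2 without SCC replicate 3 and 6 without cytoplast replicate 1 or 2. The causes were not tested beyond the fewer arrays. Only genes that had not passed changed sign. With gene-level medians the log2 differences were 0.078 for Smc1a, 0.035 for Stag1, 0.22 for Nipbl, −0.10 for Pds5a, −0.027 for Pds5b and −0.031 for Top1. After cyclic loess they were −0.28 for Rad21 and −0.15 for Wapl, and after quantile normalization −0.30 for Rad21, −0.11 for Wapl and −0.070 for Ncapg. With the hybridisation control block they were −0.020 for Rad21 and 0.0093 for Smc5, and with the replicate block 0.010 for Mau2. With single arrays left out, they ran over −0.12 to 0.062 for Rad21, −0.16 to 0.038 for Mau2, −0.020 to 0.24 for Ncapd2, −0.14 to 0.53 for Ncapg and −0.11 to 0.11 for Smc5. Signal over background limits the 9 genes above it on no array.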
